A study of Mus musculus with 56 samples.

Results

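The mevalonate and squalene pathway turns acetyl-CoA into squalene epoxide, the precursor of every sterol a mouse cell makes. Expression of 9 of its enzymes was followed here: Acat2, Hmgcs1, Mvk, Pmvk, Mvd, Idi1, Fdps, Fdft1 and Sqle. They were chosen by their place in the pathway, with earlier results of these data known. All 9 were found among the 18088 genes of the table by their Ensembl IDs, and all 9 passed the filter on low values, as did 17778 genes in all.

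RNA was sequenced from the prefrontal cortex of 56 C57BL/6J mice on postnatal day 25. HT mice were heterozygous for Scn2a, the gene of a neuronal sodium channel opened by voltage, and WT mice were wild type. They had received fluoxetine (a serotonin reuptake inhibitor), lithium (a mood stabiliser) or vehicle in their mothers' milk for 3 weeks, from day 3 to day 24. The libraries numbered 9 from HT fluoxetine mice, 10 from HT lithium mice, 10 from HT vehicle mice, and 9 each from WT fluoxetine, WT lithium and WT vehicle mice, with 4 or 5 of each sex in every group. All groups shared the strain, age, tissue and the route through the dam. The labels give neither the construction of the Scn2a allele, nor the dose, nor the dam or litter of a pup. Pups of a group may therefore have shared a mother, and the p-values measure only the spread between these libraries.

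The pathway runs in the cytosol, endoplasmic reticulum and peroxisomes. Acat2 joins acetyl-CoA into acetoacetyl-CoA, Hmgcs1 adds a further acetyl-CoA, and the product is reduced to mevalonate. Mvk and Pmvk phosphorylate mevalonate, Mvd removes a carboxyl group to give isopentenyl pyrophosphate, and Idi1 interconverts this with its isomer. Fdps joins these units into farnesyl pyrophosphate, which also feeds the branch to ubiquinone, dolichol and prenylated proteins. Fdft1 commits farnesyl units to squalene, and Sqle oxidises squalene, a slow and regulated step of sterol synthesis. When membrane sterol is low, Scap carries the transcription factor SREBP-2, encoded by Srebf2, from the endoplasmic reticulum to the Golgi, where it is cut and then switches on these genes together. Insig proteins hold it back when sterol is plentiful. The brain makes nearly all of its own cholesterol, and demand is high while axons are being myelinated in the weeks after birth.

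SREBP-2 is known to act through sterol regulatory elements beside binding sites of the partner factors NF-Y and Sp1. The 250 bases before the start of transcription were read from RefSeq (GRCm38.p6), where 6 of the 9 enzymes had an entry. There was none for Fdps, Fdft1 or Sqle. Motifs were searched on both strands: the sterol regulatory element TCACCCCAC and its looser form TCACNCNAC, the E-box-like form TCANNTGA, the NF-Y box CCAAT and the GC box GGGCGG. The motifs TCACCCCAC and TCACNCNAC overlap by construction. The 4 upstream sequences shown are of Hmgcs1, which has the highest level and the sterol element, of Mvk and Mvd, which hold NF-Y and GC boxes, and of Pmvk, which varied least with the other enzymes. Capitals mark every match, which on the opposite strand reads ATTGG for CCAAT and CCGCCC for GGGCGG.
Hmgcs1, chr13:119690101-119690350, plus strand: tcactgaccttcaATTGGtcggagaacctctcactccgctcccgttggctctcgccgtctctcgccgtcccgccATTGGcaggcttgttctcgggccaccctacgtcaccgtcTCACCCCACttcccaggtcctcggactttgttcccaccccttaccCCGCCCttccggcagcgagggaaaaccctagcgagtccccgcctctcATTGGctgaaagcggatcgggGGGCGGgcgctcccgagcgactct
Mvk, chr5:114444019-114444268, plus strand: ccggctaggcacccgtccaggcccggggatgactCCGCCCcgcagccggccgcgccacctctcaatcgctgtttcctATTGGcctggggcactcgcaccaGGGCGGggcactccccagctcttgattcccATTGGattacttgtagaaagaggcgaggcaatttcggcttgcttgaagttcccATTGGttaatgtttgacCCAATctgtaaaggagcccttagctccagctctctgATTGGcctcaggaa
Mvd, chr8:122443423-122443672, minus strand: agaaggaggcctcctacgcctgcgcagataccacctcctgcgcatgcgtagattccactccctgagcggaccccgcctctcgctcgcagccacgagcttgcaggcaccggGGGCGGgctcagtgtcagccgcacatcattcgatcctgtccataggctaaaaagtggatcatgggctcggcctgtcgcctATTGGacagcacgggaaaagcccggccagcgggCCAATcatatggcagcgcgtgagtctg
Pmvk, chr3:89454291-89454540, plus strand: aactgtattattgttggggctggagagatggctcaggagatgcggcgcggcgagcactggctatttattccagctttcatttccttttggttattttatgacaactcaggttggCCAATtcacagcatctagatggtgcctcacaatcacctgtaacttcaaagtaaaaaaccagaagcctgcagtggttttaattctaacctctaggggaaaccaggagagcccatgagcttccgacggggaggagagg

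Hmgcs1 held the sterol element TCACCCCAC 137 bases before its start, with 3 NF-Y boxes and 2 GC boxes. The element occurred in 0.496% of the 32851 windows of this length in the RefSeq table. Mvk held 5 NF-Y boxes and 2 GC boxes, while Mvd and Idi1 each held 2 NF-Y boxes and 1 GC box. Acat2 held 1 GC box and no NF-Y box in this window. Pmvk has an entry for each of 2 starts. Its upstream window shown above held 1 NF-Y box, and the window before its other start held no match. CCAAT occurred in 33.85% and GGGCGG in 32.742% of all windows, so a single match to either is common. The looser element was found in 2.262% of all windows and, among the enzymes, only at the Hmgcs1 site, and TCANNTGA (7.09% of all windows) was found in none of the 7 windows of the enzymes.

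All 9 genes were expressed in every library. Each level is a number of reads over the size factor of its library, and levels of different genes are compared only per kilobase of exon. This length merges all annotated exons of a gene, so it can exceed that of the transcript expressed. The order of the enzymes per kb depends on it. Coordinates are of GENCODE vM21 on GRCm38. Hmgcs1 (chromosome 13, 119690379 to 119708260, plus strand) stood apart at 2371 per kb. Fdft1 (chromosome 14, 63145150 to 63179578, minus strand) had 560.1 per kb and Acat2 (chromosome 17, 12942890 to 12960747, minus strand) 508 per kb. Next came Idi1 (chromosome 13, 8885501 to 8892451, plus strand) at 489.6 per kb and Pmvk (chromosome 3, 89454541 to 89469013, plus strand) at 462 per kb. Sqle (chromosome 15, 59315077 to 59331192, plus strand) had 368 per kb, Mvd (chromosome 8, 122433601 to 122443422, minus strand) 329 per kb and Fdps (chromosome 3, 89093588 to 89101959, minus strand) 307 per kb. Mvk (chromosome 5, 114444269 to 114460591, plus strand) was lowest at 208 per kb, and the order spanned 11.4-fold. Among mice of the same group the enzymes had an SD of 0.09 log2 units for Fdft1 to 0.14 for Hmgcs1, against a median of 0.13 over all genes tested. The end of Fdft1 overlaps Ctsb on the opposite strand by 774 bases, and Ctsb averaged 13865, so some Fdft1 reads may be misassigned, since the sources used here do not state that counting used strand. Acat2 has a near-identical neighbour, Acat3, with values of 33.6 to 117, and reads shared by the pair may have been split.

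Scn2a itself lay at 7583 to 9619 in the 29 HT libraries and at 9727 to 13381 in the 27 WT libraries, without overlap. Depth was 24.3 to 36.4 M reads per library. In 22 of the 56 libraries the mean log2 level of marker genes of the olfactory bulb or of the striatum, regions next to the dissected one, stood more than 1 above the median of all libraries. In bulk tissue, fewer cells of a type and less RNA per cell cannot be told apart.

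In HT mice 4 of the 9 enzymes fell with fluoxetine. Acat2, Mvk, Fdps and Sqle passed the threshold of an adjusted p below 0.05, and the other 5 enzymes had lower means that did not pass it. Each of the 9 enzymes lay below its vehicle mean (that of the same genotype and sex) in 9 of 9 HT fluoxetine libraries. The enzymes varied together and share the vehicle libraries, so they are not 9 separate observations. The share of all genes below the vehicle mean in 9 of 9 libraries was not counted. Over all genes tested, 0.045% of genes passed in this comparison, either way.

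At the entry of the pathway, Acat2 had a lowest, median and highest value of 1069, 1159.8 and 1265 in HT fluoxetine mice, against 1267, 1402 and 1528 in HT vehicle mice. The groups did not overlap, and the log2 level of Acat2 fell by 0.26 ± 0.051 (± SE here and below, adjusted p = 0.015 by limma). Hmgcs1 lay at 8582, 9999 and 10821 in HT fluoxetine mice, against 10949.7, 11893 and 12579.8 in HT vehicle mice, also without overlap. The share of all genes without overlap between these groups was not counted. Its log2 change of -0.26 ± 0.064 did not pass the test (adjusted p = 0.17, limma).

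Mvk, the mevalonate kinase, lay at 488, 509 and 578 in HT fluoxetine mice, against 548, 605 and 712 in HT vehicle mice. The groups overlapped, and Mvk fell by 0.22 ± 0.046 in log2 units (adjusted p = 0.036, limma). The next enzymes, Pmvk, Mvd and Idi1, had log2 changes of -0.17, -0.25 and -0.21 (adjusted p = 0.26, 0.082 and 0.34, limma). Mvd lay at 509 to 571 in HT fluoxetine mice and at 599 to 709.6 in HT vehicle mice, without overlap. Idi1 lay at 1300.3, 1648 and 1721 in HT fluoxetine mice, against 1608, 1854 and 1915 in HT vehicle mice, and Pmvk at 666, 765 and 828 in HT fluoxetine mice, against 762, 861 and 996 in HT vehicle mice. Both overlapped between the groups, with all 9 HT fluoxetine libraries of Pmvk below the HT vehicle median of 861.

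Fdps, the last enzyme before the branch to isoprenoids, had the largest log2 change of the 9. It lay at 1096, 1152 and 1306 in HT fluoxetine mice, against 1209, 1441 and 1611 in HT vehicle mice, and fell by 0.31 ± 0.055 on the log2 scale, or -19.4% (adjusted p = 0.0051, limma). The lowest HT vehicle library, female 1, was the single HT vehicle value inside the fluoxetine range. Sqle lay at 1759, 1792 and 2127 in HT fluoxetine mice, against 2028, 2300.1 and 2438 in HT vehicle mice, and fell by 0.29 ± 0.055, or -18.1% (adjusted p = 0.014, limma). Fdft1, which stands between them, changed by -0.20 ± 0.043 in log2 units and did not pass (adjusted p = 0.055, limma). Its values were 2046, 2286 and 2366 in HT fluoxetine mice, against 2314, 2574 and 3099.8 in HT vehicle mice, and the ranges overlapped.

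The number of enzymes called in HT mice depended on the libraries and the tool. Leaving out HT vehicle female 5 took it to 1, and so did leaving out HT fluoxetine female 2. Leaving out HT vehicle male 1 or one of the HT fluoxetine libraries male 5, female 3 and female 1 took it to 2. A single omission ended the Mvk call for 12 of the 56 libraries (adjusted p up to 0.14, limma). It ended the Acat2 call for 5 and the Sqle call for 3. DESeq2 on the recovered reads called 7, and 2 were called without the 22 libraries rich in olfactory or striatal transcripts, where the log2 changes were -0.21 to -0.37. Of the olfactory bulb markers 9 of 9 were lower in HT fluoxetine than in HT vehicle libraries (median log2 change -0.35). Their scores were -1.68 to 1.97 in HT fluoxetine libraries and -0.72 to 1.77 in HT vehicle libraries. Limma called 0 of them, with 0 at an unadjusted p below 0.05, against 8.56% of all genes.

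**Figure D1:**
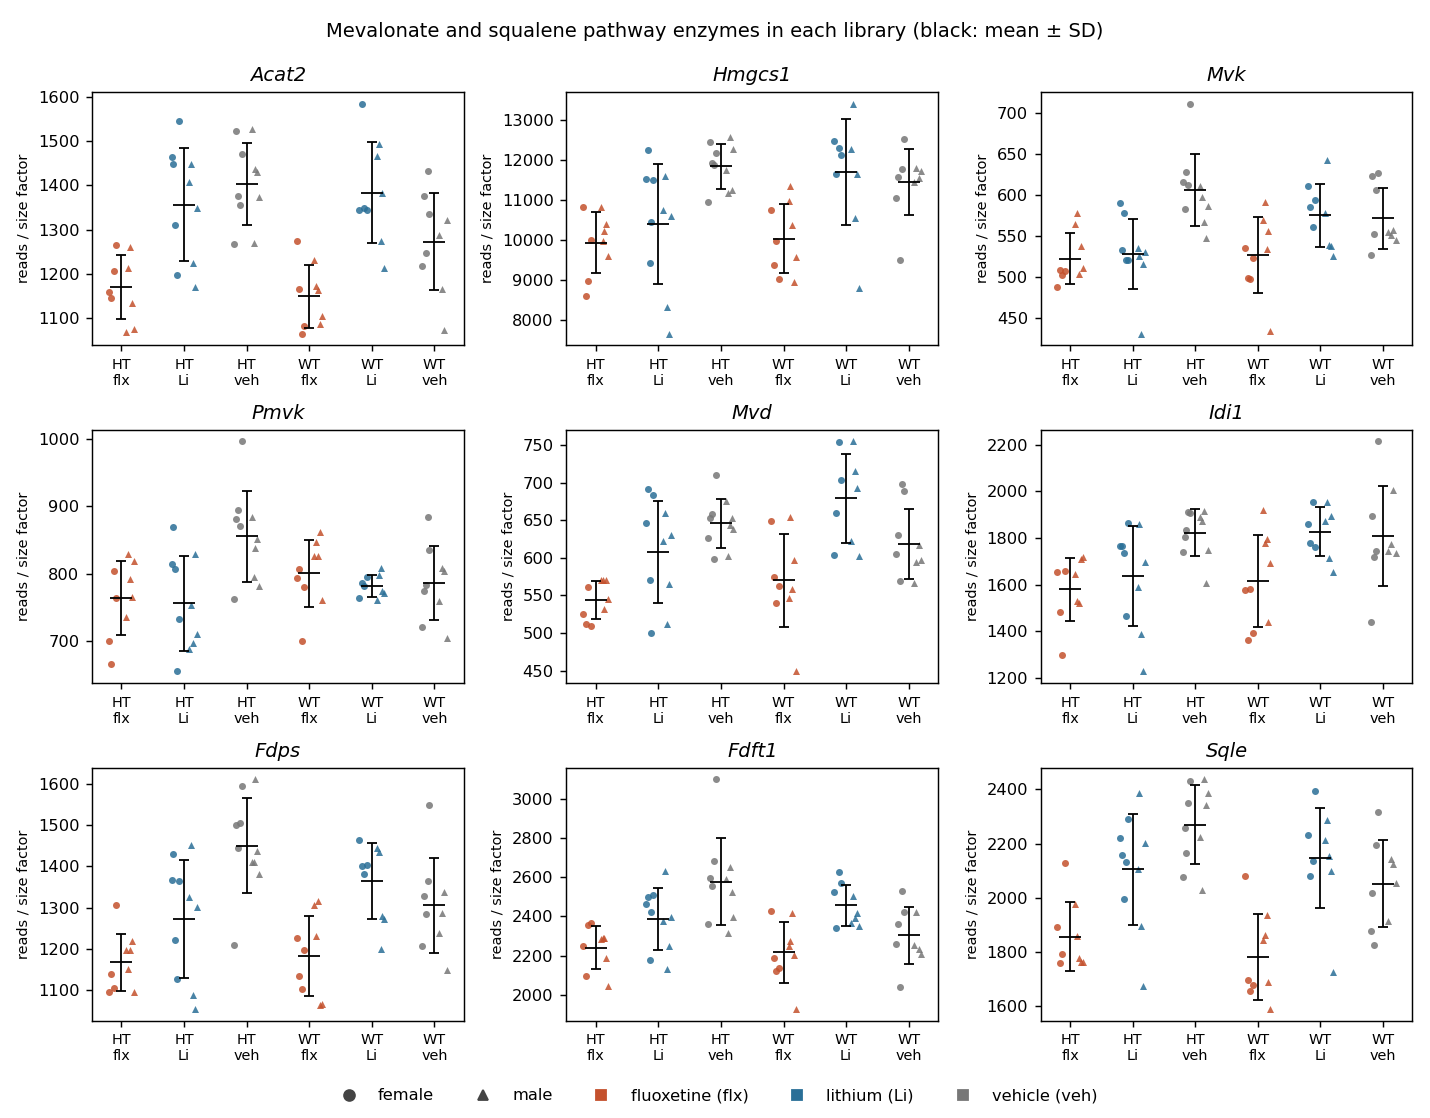
Level of each enzyme (reads divided by size factor, vertical axis, not starting at 0) in every library, by genotype and treatment, with circles for females, triangles for males, and black bars for the mean and SD of each group. In HT mice the fluoxetine means lie below the vehicle means in all 9 panels, and Acat2, Hmgcs1 and Mvd do not overlap between those groups. The share of all genes without overlap was not counted.

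In WT mice no enzyme passed the test for fluoxetine (0 of 9 with limma, voom and edgeR, 1 of 9 with DESeq2). At an unadjusted p below 0.05 there were 6 of 9, against 10.9% of all genes, and 0.146% of all genes were called. The log2 changes were negative for 8 of the 9 enzymes, from -0.21 for Sqle to -0.05 for Fdft1, and 0.02 for Pmvk. Sqle lay at 1589, 1695 and 2082 in WT fluoxetine mice, against 1825, 2054 and 2318 in WT vehicle mice, and the ranges overlapped (-0.21 ± 0.057, adjusted p = 0.10, limma). Hmgcs1 lay at 8943, 9957 and 11342 in WT fluoxetine mice, against 9483, 11579 and 12511 in WT vehicle mice (-0.20 ± 0.066, adjusted p = 0.20, limma). It was below the vehicle mean in 9 of 9 WT fluoxetine libraries, though the ranges overlapped. Pmvk lay at 699.8, 807 and 862 in WT fluoxetine mice, against 705, 783 and 884 in WT vehicle mice, and was below the vehicle mean in 4 of 9 libraries. In WT mice 9 of 9 olfactory bulb markers were higher with fluoxetine (median 0.46, 0 called by limma and 0 at an unadjusted p below 0.05). Without WT fluoxetine female 1 the count of enzymes called was 1.

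The difference between the genotypes in the fluoxetine effect was tested as an interaction, and no enzyme was called (0 of 9 with limma, voom, edgeR and DESeq2, against 0% of all genes with limma). The interaction was negative for all 9, from -0.19 for Pmvk to -0.04 for Idi1 on the log2 scale. At an unadjusted p below 0.05 there were 3, against 5.44% of all genes. The vehicle libraries enter this difference. For the 9 enzymes HT minus WT ran from 0.02 to 0.16 under vehicle and from -0.07 to 0.07 under fluoxetine. The 95% intervals of the 9 interactions ran from -0.33 at the lowest to 0.14 at the highest, so a genotype difference in the fluoxetine effect was neither shown nor bounded tightly.

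Averaged over both genotypes, fluoxetine lowered 8 of the 9 enzymes, against 0.928% of all genes called either way and 0.405% called lower. Sqle fell most, by 0.25 ± 0.04 on the log2 scale or -15.7%, and was below the vehicle mean in 17 of 18 libraries (adjusted p = 6e-04, limma). Hmgcs1 fell by 0.23 ± 0.046 and was below the vehicle mean in 18 of 18 libraries (adjusted p = 0.01, limma). Fdps fell by 0.22 ± 0.04 (adjusted p = 0.0023), Acat2 by 0.20 ± 0.036 (adjusted p = 0.0038) and Idi1 by 0.20 ± 0.045 (adjusted p = 0.026). Of these, Acat2 opens the pathway, while Idi1 and Fdps prepare and join the isoprene units. Mvd fell by 0.18 ± 0.041 (adjusted p = 0.019), Mvk by 0.17 ± 0.033 (adjusted p = 0.0082) and Fdft1 by 0.13 ± 0.031 (adjusted p = 0.032). Pmvk was the exception, at -0.07 with a 95% interval of -0.14 to -0.01 (adjusted p = 0.30, limma). The median of the 9 log2 changes was -0.20, beside 0.00 over all genes tested.

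The changes were negative in both sexes of both genotypes except for Pmvk in WT males, and no enzyme was called within a sex. In HT females the 9 log2 changes ran from -0.33 (Mvk) to -0.23 (Acat2 and Fdft1), and in HT males from -0.32 (Sqle) to -0.08 (Pmvk). In WT females they ran from -0.27 (Idi1) to -0.05 (Pmvk), and in WT males from -0.21 (Sqle) to 0.10 (Pmvk). These comparisons had 4 or 5 libraries a group and called 0% to 0.0169% of all genes. At an unadjusted p below 0.05 there were 9, 6, 6 and 2 of the 9 enzymes in HT females, HT males, WT females and WT males. The shares of all genes at that threshold were 10.5%, 4.38%, 8.21% and 7.30%, in the same order. The difference of the fluoxetine effect between females and males was called for 0 of 9 enzymes by limma, voom, edgeR and DESeq2, with 2 of 9 at an unadjusted p below 0.05 (Mvk at -0.18 and Pmvk at -0.17, female minus male, 95% intervals of -0.31 to -0.05 and -0.30 to -0.04). No gene was called for that difference by limma, and 8.52% of all genes had an unadjusted p below 0.05.

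Without the 22 libraries rich in olfactory or striatal transcripts, 4 of the 8 calls over both genotypes remained: Acat2 (-0.25), Hmgcs1 (-0.24), Fdps (-0.26) and Sqle (-0.28). The 4 that were lost were Mvk (-0.15), Mvd (-0.16), Idi1 (-0.20) and Fdft1 (-0.15), with adjusted p = 0.07 to 0.29 in limma on the 34 remaining libraries. With the olfactory and striatal scores as covariates in all 56 libraries, all 8 were called. Of the astrocyte markers 8 of 10 and of the oligodendrocyte markers 9 of 10 were lower with fluoxetine, with median log2 changes of -0.01 and -0.03. Limma called 0 of either list, and 2 astrocyte and 0 oligodendrocyte markers had an unadjusted p below 0.05. The astrocyte score (mean log2 level of the markers, relative to the median library) ran from -0.09 to 0.205 in fluoxetine libraries and from -0.158 to 0.235 in vehicle libraries. The oligodendrocyte score ran from -0.485 to 0.5 in fluoxetine libraries and from -0.579 to 0.696 in vehicle libraries. No marker of either list was at 0 in any library.

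**Figure D2:**
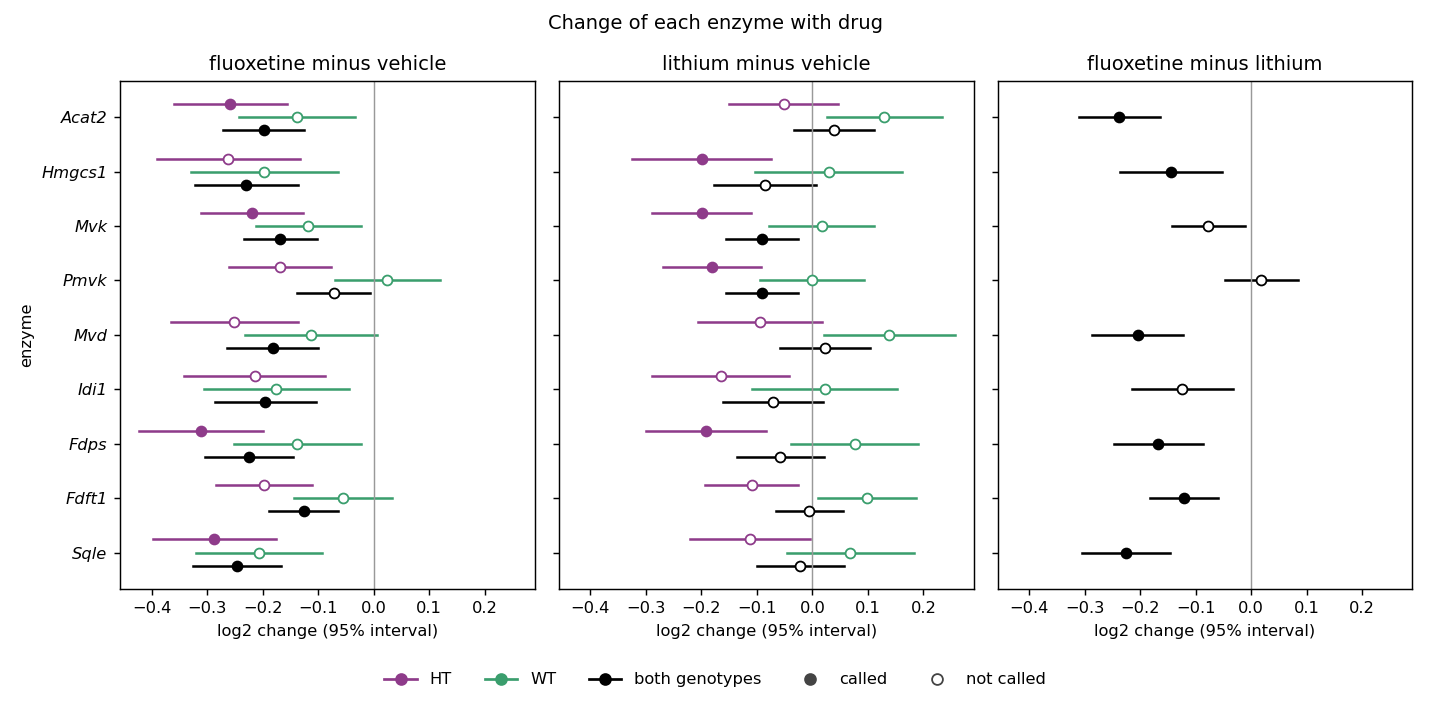
Change of each enzyme on the log2 scale with its 95% interval (horizontal axis), for fluoxetine minus vehicle, lithium minus vehicle and fluoxetine minus lithium, in HT mice, in WT mice and averaged over both. Filled points passed an adjusted p below 0.05 in limma. The fluoxetine changes lie left of 0 except Pmvk in WT mice, and the lithium changes lie left of 0 in HT mice and near or right of 0 in WT mice.

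Lithium was compared with vehicle in each genotype. In HT mice 4 enzymes fell past the threshold, Hmgcs1, Mvk, Pmvk and Fdps, where 8.77% of all genes were called either way and 4.13% were called lower. In WT mice none was called, where 5.71% of all genes were. The HT lithium and HT fluoxetine comparisons share the same 10 vehicle libraries, so their likeness is not independent.

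Mvk lay at 431, 529 and 590.5 in HT lithium mice, against 548, 605 and 712 in HT vehicle mice, and fell by 0.20 ± 0.044 in log2 units (adjusted p = 0.0032, limma). It was below the vehicle mean in 10 of 10 HT lithium libraries, though the ranges overlapped. Pmvk lay at 655, 742 and 869 in HT lithium mice, against 762, 861 and 996 in HT vehicle mice, and fell by 0.18 ± 0.044 (adjusted p = 0.0067, limma). Fdps lay at 1054, 1314 and 1452 in HT lithium mice, against 1209, 1441 and 1611 in HT vehicle mice, with overlap. Fdps fell by 0.19 ± 0.054 (adjusted p = 0.018) and Hmgcs1 by 0.20 ± 0.062 (adjusted p = 0.035, limma).

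The spread of Hmgcs1 was wide in HT lithium mice, at 7645, 10665 and 12238, against 10949.7, 11893 and 12579.8 in HT vehicle mice. Its lowest values in any library were 7645 in HT lithium male 4 and 8325 in HT lithium male 3, and male 4 also held the lowest value of Idi1 and of Fdps in the study. Without HT lithium male 3 the count of enzymes called in HT mice was 2. Leaving out a single library ended the Hmgcs1 call for 10 of the 56 libraries (adjusted p up to 0.091, limma). The remaining enzymes had log2 changes of -0.17 (Idi1), -0.11 (Fdft1), -0.11 (Sqle), -0.09 (Mvd) and -0.05 (Acat2), with adjusted p of 0.081 to 0.57 (limma). With only the HT lithium and HT vehicle libraries in the fit 2 enzymes were called, Mvk and Pmvk, and Hmgcs1 (adjusted p = 0.069) and Fdps (adjusted p = 0.063, limma) were not. Without the 22 libraries rich in olfactory or striatal transcripts Pmvk lost its call (-0.21, adjusted p = 0.11), while Fdft1 (-0.20, adjusted p = 0.024) and Sqle (-0.24, adjusted p = 0.034, limma) were called. The changes there were larger for the other enzymes too, at -0.34 for Hmgcs1, -0.32 for Fdps, -0.29 for Idi1, -0.27 for Mvk, -0.23 for Mvd and -0.20 for Acat2, the last 2 and Idi1 without a call. That fit kept only males 3 and 4 of the HT lithium males. Their mean differences over the 9 enzymes from the vehicle mean were -0.33 and -0.32. Males 1, 2 and 5, which were left out, had -0.12, -0.004 and -0.10. Of the HT vehicle females the fit kept 2 and 5 (0.01 and 0.13). It left out 1, 3 and 4 (-0.13, -0.01 and -0.001). The part of these libraries in the larger changes was not tested. With astrocyte and oligodendrocyte scores as covariates Fdft1 was called as well (-0.13, adjusted p = 0.027, limma).

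In WT mice the lithium changes were 0 or above for all but Pmvk. Mvd lay at 603, 693 and 755 in WT lithium mice, against 567, 605 and 698 in WT vehicle mice (0.14 ± 0.059, adjusted p = 0.15, limma). Acat2 lay at 1213, 1348 and 1584 in WT lithium mice, against 1074, 1287 and 1433 in WT vehicle mice (0.13 ± 0.052, adjusted p = 0.12, limma). Both overlapped between the groups, although Acat2 was above the vehicle mean of its sex in 9 of 9 WT lithium libraries. Limma, voom, edgeR and DESeq2 each called 0 of the 9, and 3 had an unadjusted p below 0.05, against 21.4% of all genes. Beside this, 9 of 9 olfactory bulb markers were lower (median -0.63) and 10 of 10 striatal markers higher (median 0.28) than in WT vehicle libraries. Limma called 0 of either list, with 0 olfactory and 0 striatal markers at an unadjusted p below 0.05. The olfactory score ran from -1.25 to 1.28 in WT lithium libraries and from -1.28 to 2.74 in WT vehicle libraries, and the striatal score ran from -0.19 to 1.82 in WT lithium libraries and from -0.22 to 1.09 in WT vehicle libraries. The markers Tbx21 and Eomes of the olfactory bulb were at 0 in some libraries. The part of these markers in the lithium values was not tested beyond the fits that follow. With both scores as covariates the changes were 0.12 for Acat2 and 0.12 for Mvd. Without the 22 libraries rich in olfactory or striatal transcripts they were 0.12 and 0.14 (adjusted p = 0.31 and 0.29, limma).

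The lithium effect in HT minus that in WT mice was negative for all 9 enzymes, from -0.27 ± 0.078 for Fdps to -0.18 ± 0.064 for Pmvk on the log2 scale. All 9 had an unadjusted p below 0.05, against 10.9% of all genes, and none passed after adjustment over all genes (adjusted p = 0.22 to 0.45, limma, and 0 of 9 with voom, edgeR and DESeq2). The 95% interval for Fdps was -0.43 to -0.11. The vehicle libraries enter this difference too: HT vehicle means lay above WT vehicle means for all 9 enzymes.

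Averaged over both genotypes, lithium lowered Mvk by 0.09 ± 0.032 (adjusted p = 0.045) and Pmvk by 0.09 ± 0.032 (adjusted p = 0.044, limma), where 16.2% of all genes were called either way and 6.85% lower. The median of the 9 was -0.06, beside 0.00 over all genes. Both calls lie close to the threshold, and leaving out a single library took the count to 0 or 1 for 29 of the 56 libraries. Without the 22 libraries rich in olfactory or striatal transcripts both calls were lost (adjusted p = 0.12 for Mvk and 0.20 for Pmvk), and Hmgcs1 was called in their place (-0.15, adjusted p = 0.046, limma). Only males 3 and 4 of the HT lithium males were left in that fit. No enzyme was called for lithium within females or males of either genotype, where limma called 0.99% of all genes in HT females, 0.546% in HT males, 0.799% in WT females and 0.208% in WT males. At an unadjusted p below 0.05 there were 4 of 9 in HT females, 6 in HT males, 0 in WT females and 2 in WT males. The shares of all genes at that threshold were 15.7%, 13.0%, 18.4% and 11.9%, in the same order. For the difference of the lithium effect between the sexes the count was 0 of 9 with limma, voom, edgeR and DESeq2. At an unadjusted p below 0.05 it was 0, against 7.16% of all genes.

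The 2 drugs were also compared directly, without the vehicle libraries. With fluoxetine 6 enzymes were lower than with lithium, where 6.5% of all genes were called either way and 3.84% lower. Acat2 lay at 1065, 1161 and 1273 in fluoxetine mice, against 1169.9, 1349.5 and 1584 in lithium mice, and was 0.24 ± 0.036 lower in log2 units (adjusted p = 2.6e-05, limma). It was below the lithium mean of its genotype and sex in 18 of 18 fluoxetine libraries, though the ranges overlapped. Sqle lay at 1589, 1785 and 2127 in fluoxetine mice, against 1674, 2154 and 2394 in lithium mice, and was 0.22 ± 0.04 lower (adjusted p = 0.00027, 18 of 18 libraries, limma). Mvd was 0.20 ± 0.041 lower (adjusted p = 0.0013), Fdps 0.17 ± 0.04 lower (adjusted p = 0.007), Hmgcs1 0.14 ± 0.046 lower (adjusted p = 0.048) and Fdft1 0.12 ± 0.031 lower (adjusted p = 0.011, limma). Mvk and Idi1 had log2 differences of -0.08 and -0.12 that did not pass, with 95% intervals of -0.14 to -0.01 and -0.21 to -0.03. Pmvk had a difference of 0.02 with an interval of -0.05 to 0.08. Without the 22 libraries rich in olfactory or striatal transcripts 2 calls remained, Acat2 (-0.22) and Sqle (-0.20). Only males 3 and 4 of the HT lithium males were left in that fit. With both scores as covariates Hmgcs1 was no longer called (-0.13, adjusted p = 0.063), nor with astrocyte and oligodendrocyte scores (-0.14, adjusted p = 0.057), nor with only the groups compared (adjusted p = 0.094, limma). Leaving out a single library ended the Hmgcs1 call for 36 of the 56 libraries (adjusted p up to 0.085, limma). In this comparison 9 of 9 olfactory markers were higher with fluoxetine (median 0.21) and 10 of 10 striatal markers lower (median -0.16).

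**Figure D3:**
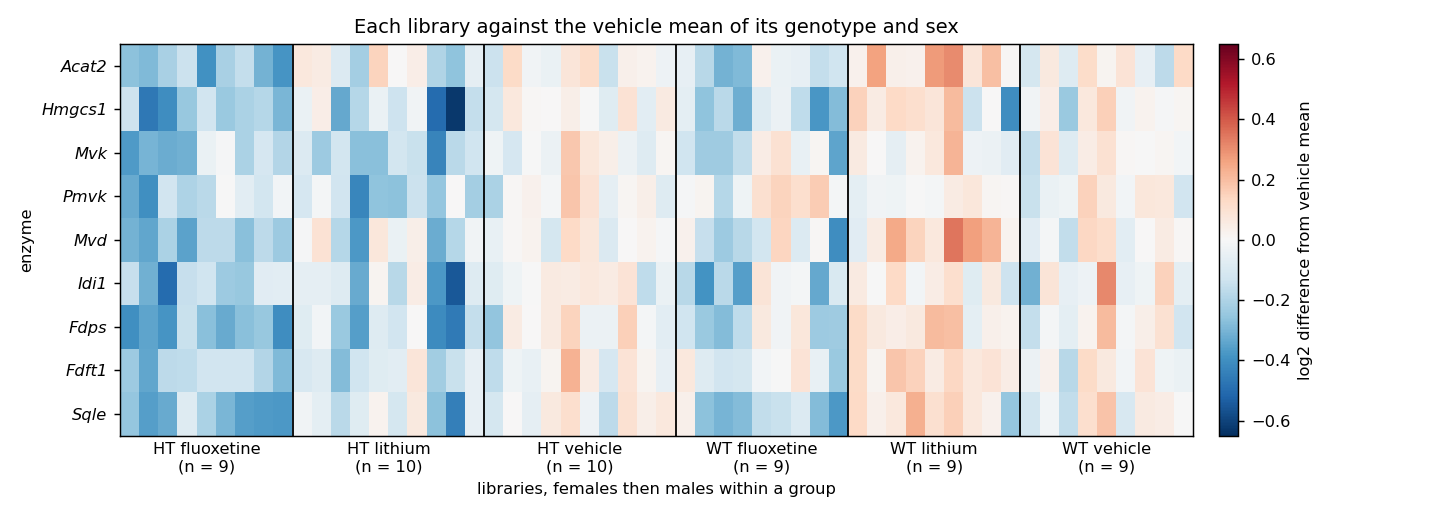
Log2 difference of each enzyme in each library (columns, females then males within a group) from the vehicle mean of its genotype and sex, with blue for lower and red for higher. Every HT fluoxetine library is below the vehicle mean in all 9 rows, and the darkest columns of the HT lithium block are males 3 and 4.

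The enzymes were also described library by library. The mean of the 9 differences from the vehicle mean was -0.35 to -0.18 in the 9 HT fluoxetine libraries and -0.23 to 0.01 in the 9 WT fluoxetine libraries. It was -0.33 to -0.00 in the 10 HT lithium libraries and -0.08 to 0.19 in the 9 WT lithium libraries. HT vehicle libraries ran from -0.13 to 0.13 and WT vehicle libraries from -0.13 to 0.14 around their own means. All 9 enzymes were below the vehicle mean in 9 of 9 HT fluoxetine, 3 of 9 WT fluoxetine, 4 of 10 HT lithium and 0 of 9 WT lithium libraries, and in 1 of 10 HT vehicle and 2 of 9 WT vehicle libraries. Sets of other genes were not counted in this way.

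With all 56 libraries, limma called no enzyme between HT and WT mice under any treatment. Under vehicle all 9 were higher in HT than in WT mice, from 0.02 (Idi1) to 0.16 (Fdft1) on the log2 scale, and 5 had an unadjusted p below 0.05, against 9.93% of all genes. Only Scn2a, 0.00562% of the genes, was called there by limma, and the count of enzymes was 0 with voom and edgeR and 1 with DESeq2. Fdft1 lay at 2314, 2574 and 3099.8 in HT vehicle mice, against 2043, 2259 and 2527 in WT vehicle mice, and the ranges overlapped (0.16 ± 0.043, adjusted p = 0.17, limma). Without HT vehicle female 1 the count of enzymes called was 1. Under fluoxetine the genotype differences ran from -0.07 to 0.07 with no enzyme at an unadjusted p below 0.05, and 0.0112% of genes were called. Under lithium they were negative for all 9, from -0.18 (Hmgcs1) to -0.03 (Acat2), with 4 of 9 at an unadjusted p below 0.05, against 10.3% of all genes, and 0.0337% of genes called. Voom, edgeR and DESeq2 called 0 of the 9 under either drug, but without the 22 libraries rich in olfactory or striatal transcripts limma called 1 of the 9 under lithium. Only males 3 and 4 of the HT lithium males were left in that fit. Females and males did not differ past the threshold in any enzyme (female minus male, log2 differences of -0.02 to 0.05, where 0.197% of genes were called), with 0 of 9 at an unadjusted p below 0.05 and 0 of 9 with voom, edgeR and DESeq2.

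The steps around the pathway were described with lists of genes. Of 10 later sterol enzymes, which turn squalene epoxide into cholesterol, 9 were lower with fluoxetine over both genotypes and 4 were called, with a median of -0.13, beside 49.2% of all genes lower, 0.928% called either way and 0.405% called lower. Among the called genes were Msmo1, a sterol demethylating oxidase (-0.18, adjusted p = 0.01), Lss, which closes the sterol rings (-0.13, adjusted p = 0.044), and Nsdhl, a sterol dehydrogenase (-0.13, adjusted p = 0.03, limma). Against lithium, all 10 were lower with fluoxetine and 8 were called, with a median of -0.14, beside 49.9% of all genes lower, 6.5% called either way and 3.84% called lower. Among those called were Sc5d (-0.13, adjusted p = 0.0011), Lss (-0.16, adjusted p = 0.0027) and Dhcr7 (-0.18, adjusted p = 0.0063, limma).

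The branch that leaves the pathway at farnesyl pyrophosphate was described in the same way. Of 14 genes of ubiquinone, dolichol and prenylation, 6 were lower and 8 higher with fluoxetine, with a median of 0.01 and a range of -0.02 to 0.05, and limma called 0 (1 at an unadjusted p below 0.05). In HT lithium mice Pdss1, which builds the ubiquinone side chain, rose by 0.14 (adjusted p = 0.021), while Coq2, which attaches it, fell by 0.11 (adjusted p = 0.032) and Icmt, which methylates prenylated proteins, fell by 0.09 (adjusted p = 0.043, limma). Of all genes, 8.77% were called in that comparison, either way. The mitochondrial and ketone body counterparts of the first enzymes, a list of 5 genes that includes Acat1, had a median of -0.03 with fluoxetine, with 0 called by limma and 1 at an unadjusted p below 0.05.

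Among 16 genes of sterol sensing and transport, 11 were lower with fluoxetine and 4 were called, where 0.405% of all genes were called lower. Insig1, the sterol-dependent anchor of SREBP and itself a target, fell by 0.33 ± 0.042 (adjusted p = 5.5e-06), and Stard4, a cytosolic sterol carrier, fell by 0.32 ± 0.042 (adjusted p = 5.5e-06, limma). Srebf2 fell by 0.09 ± 0.02 (adjusted p = 0.016, limma). Insig1 and Stard4 also passed in WT mice alone, at -0.31 (adjusted p = 0.024) and -0.27 (adjusted p = 0.048), and in HT mice alone at -0.35 (adjusted p = 0.002) and -0.37 (adjusted p = 0.001, limma). In HT lithium mice Stard4 (-0.20, adjusted p = 0.019), Insig1 (-0.17, adjusted p = 0.0498) and Srebf2 (-0.09, adjusted p = 0.038) fell, where 4.13% of all genes were called lower. Abcg1, a cholesterol exporter, rose with lithium by 0.08 in HT mice (adjusted p = 0.034), by 0.11 in WT mice (adjusted p = 0.0125) and by 0.10 over both genotypes (adjusted p = 0.00028, limma). Of all genes, 8.77%, 5.71% and 16.2% were called in these comparisons, either way. Of 12 genes of fatty acid synthesis, 10 were lower with fluoxetine, with a median of -0.05, and 2 were called, against the same 0.405%: Acaca (-0.07, adjusted p = 0.017), the acetyl-CoA carboxylase, and Fasn (-0.08, adjusted p = 0.03), the fatty acid synthase. In WT lithium mice, where 5.71% of all genes were called either way, Fasn rose by 0.13 (adjusted p = 0.0067, limma). The late sterol enzymes Ebp (0.19, adjusted p = 0.026) and Sc5d (0.15, adjusted p = 0.016, limma) rose there too.

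**Figure D4:**
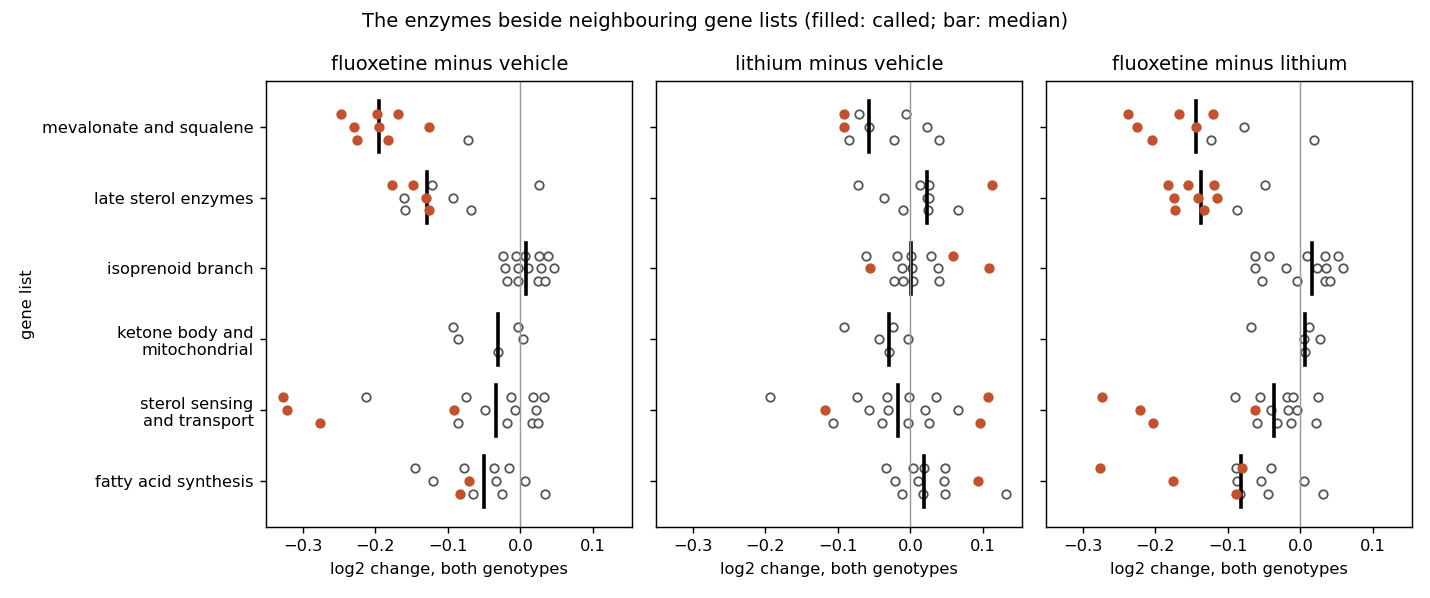
Log2 change of each gene (points, horizontal axis), averaged over both genotypes, for the 9 enzymes and 5 neighbouring lists, with filled points for genes called by limma and a bar at each median. With fluoxetine the medians are -0.20 for the 9 enzymes, -0.13 for the late sterol enzymes and 0.01 for the isoprenoid branch.

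The enzymes also varied together among mice of the same group. After the mean of each of the 12 groups was removed, 32 of the 36 pairs of enzymes correlated past an adjusted p of 0.05 over the 56 libraries (permutation within groups, two-sided, 100000 resamples, Benjamini-Hochberg over 36 pairs), and 30 did by Spearman's rho. Pearson's r ran from 0.03 to 0.80 with a median of 0.50, and the median rho was 0.46. Without the 2 libraries farthest from the median of the x-axis gene, r ran from -0.04 to 0.77. All pairs share the libraries and their size factors, and the share of pairs of other genes that would pass was not measured.

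Hmgcs1 and Sqle, near the start and at the end of the pathway, formed the closest pair, with r = 0.80 and rho = 0.77 (adjusted p = 5.1e-05 and 4.5e-05, from the smallest p that the permutation can give, 1e-05, and r = 0.77 without the 2 farthest libraries). Fdft1 and Sqle followed with r = 0.73 and rho = 0.77, with adjusted permutation p of 5.1e-05 and 4.5e-05. Idi1 and Fdps had r = 0.72 and rho = 0.62 (adjusted permutation p = 5.1e-05 and 0.00012). Against the mean of the other 8 enzymes, r was 0.80 for Fdps, 0.79 for Sqle, 0.75 for Fdft1, 0.75 for Hmgcs1 and 0.71 for Mvd. It was 0.62 for Acat2, 0.59 for Idi1, 0.57 for Mvk and 0.37 for Pmvk. Pmvk was least like the others. With Hmgcs1 it had r = 0.03 and rho = 0.03 (adjusted permutation p = 0.84 and 0.86), and with Idi1 r = 0.07 and rho = 0.01 (adjusted permutation p = 0.70 and 0.96). It did vary with Mvd, r = 0.51 and rho = 0.46 (adjusted permutation p = 0.00079 and 0.0022).

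**Figure D5:**
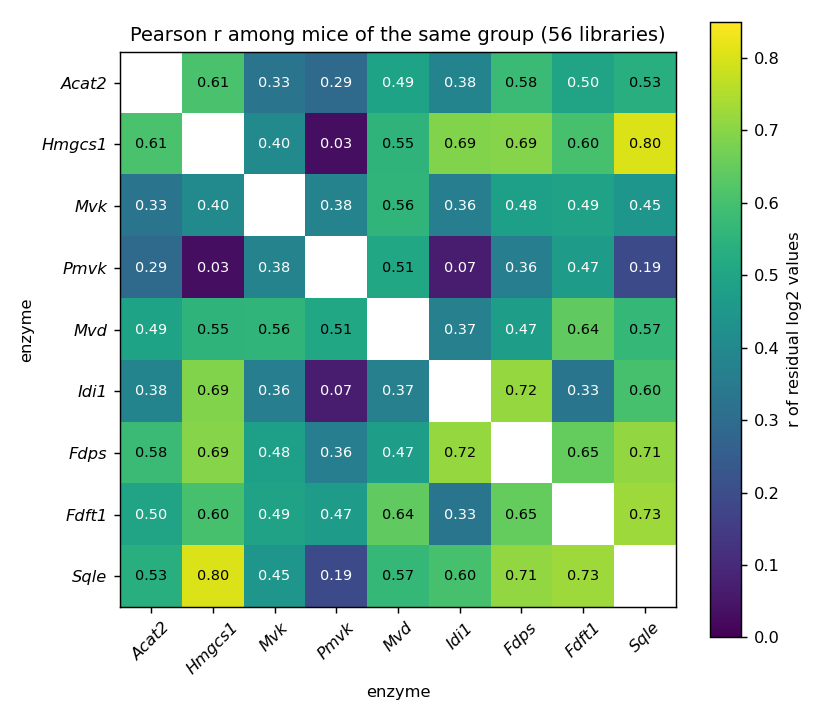
Pearson's r between enzymes (both axes) over 56 libraries after the mean of each group was removed, on a colour scale from 0 to 0.85. The brightest cell is Hmgcs1 with Sqle at 0.80, and the darkest cells lie in the row and column of Pmvk.

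The genes outside the 9 whose residuals were most like their mean over the 56 libraries were ranked by Pearson's r, as a description. Among the first 10 were Srebf2 (r = 0.77), Tubb5 (0.77), Dhcr7 (0.74), Cyp51 (0.73), Tuba1b (0.71), Nsdhl (0.71), Slc25a1 (0.70), Tkt (0.70) and Msmo1 (0.70). Of the 10, 5 were on the list of late sterol enzymes and 1 on that of sterol sensing, while Tubb5 and Tuba1b encode tubulins, Slc25a1 the mitochondrial citrate carrier and Tkt transketolase. The median r was 0.68 for the 10 late sterol enzymes, 0.30 for fatty acid synthesis, 0.24 for the ketone body list, 0.18 for the isoprenoid branch and 0.18 for sterol sensing, beside 0.01 over all genes tested. The scores of the cell type markers had r of -0.22 (choroid plexus) to 0.30 (cortical excitatory neurons) with the same mean, and the oligodendrocyte score had r = 0.27.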

How the data were processed

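RNA-seq libraries of prefrontal cortex were made, per the labels' protocols, with the kit TruSeq Stranded mRNA. Per the submitters' processing notes, which give no roles, the tools were DESeq2 1.19.11, Salmon 0.11.2 and R 3.6.0, and the build was GRCm38. The annotation and strand setting are not given in the sources used here. The deposited values are a signal that the authors made by dividing read counts by a size factor per library (0.818 to 1.23). Checked at a tolerance of 0.01 reads, 100% of values in every library were an exact multiple of what 1 read is worth there, which recovered the reads. The check says nothing of 3 libraries whose step was nearly 1: male 5 and male 2 of HT vehicle, and female 5 of HT lithium. Symbols were paired with 18077 of 18088 IDs. Recovered depth was 24.3 to 36.4 M reads, median 27.9 M.

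Because size factors were already applied, limma 3.58.1 (R 4.3.3, trend and robust) was used, as planned for such values. Log2(value + 1) was modelled by 12 group means over all 56 libraries, for 17778 genes with a value of at least 10 in at least 4 libraries (310 left out). The pseudocount makes fold changes of low genes too small. Contrasts weighted sexes and genotypes equally. P-values were adjusted by Benjamini-Hochberg over all genes, with a threshold of 0.05, and the code was tested on simulated data. Covariation was tested by permutation within groups (NumPy 2.4.6, SciPy 1.17.1). Groups came from titles and matrix columns were matched to samples by library name.

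The enzymes, gene lists and marker lists were chosen with earlier results of these data known. Named genes are the 9 enzymes, Scn2a, the 10 nearest by covariation and up to 4 called genes per list and comparison; some of these are not reported here. Alternatives were TMM rescaling, voom, edgeR 4.0.16, DESeq2 1.42.0, no filter, pseudocounts of 0.5 and 5, the replicate number as a block, a fit of only the groups compared, marker scores as covariates, leaving out the 22 libraries with an olfactory or striatal score above 1, and leaving out each library.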

Additional observations from a re-analysis of the deposited data

Results flagged for a closer look

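In 6 of the 108 combinations of an enzyme and a group, the highest or lowest library stood farther from its nearest neighbour than Dixon's critical value allows at 95%. Chance alone gives about 1 in 20. Acat2 was high in WT lithium female 2 (1584, against 1344.3 to 1347.7 in the others of its group). Mvk was low in HT lithium male 3 (431.3, against 516.1 to 535.8). Idi1 was high in WT vehicle male 3 (2006.9, against 1736.7 to 1774.4). Fdps was high in HT vehicle male 3 (1611, against 1380.9 to 1436.3). Fdft1 was low in HT lithium female 3 (2179.1, against 2420.1 to 2507.2). Sqle was high in WT fluoxetine female 1 (2081.7, against 1655.1 to 1695.4). HT lithium female 3, HT vehicle male 3 and WT vehicle male 3 were among the 22 libraries rich in olfactory or striatal transcripts.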

How the results depend on the processing

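No result reversed. Of 24 calls of an enzyme over the 5 drug comparisons that had any, all 24 were kept under TMM, voom, edgeR, DESeq2, no filter, both pseudocounts and the replicate block, 23 with olfactory and striatal scores as covariates, 21 with astrocyte and oligodendrocyte scores, 19 with only the groups compared, and 11 without the 22 libraries rich in olfactory or striatal transcripts, a fit with fewer samples. Leaving out each library kept 1224 of 1344. The cause of the other changes was not tested. Precision is limited by 4 or 5 libraries a group.

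Small shifts of a count, and changes of the enzymes behind an equal count, are not listed here or below. Enzymes called for fluoxetine in HT (4) became 7 with DESeq2 and 2 without the 22 libraries. With olfactory and striatal scores Mvd (adjusted p = 0.041) and Fdft1 (adjusted p = 0.011, limma) were called there as well. With astrocyte and oligodendrocyte scores Mvk was lost (adjusted p = 0.055) and Fdft1 was called (adjusted p = 0.0052, limma). Those for fluoxetine in WT (0) became 1 with DESeq2, and those for fluoxetine over genotypes (8) became 4 without the 22. For lithium in HT (4) there were 2 with only the groups compared. For lithium over genotypes (2) there was 1 with only the groups compared, 1 without the 22 (Hmgcs1, neither of the original calls) and 1 with astrocyte and oligodendrocyte scores. For fluoxetine against lithium (6) there were 2 without the 22. For genotype there was 1 under vehicle with DESeq2 (0) and 1 under lithium without the 22 (0).

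Genes called with DESeq2 were 16 for fluoxetine in HT (8), 123 in WT (26), 294 over genotypes (165), 34 for genotype under vehicle (1), 13 under lithium (6), 11 for lithium by genotype (0) and 10 for fluoxetine by sex (0). With only the groups compared they were 19, 9 and 80 for fluoxetine in HT, in WT and over genotypes, and 1 and 16 for genotype under fluoxetine (2) and lithium. With olfactory and striatal scores they were 63 for fluoxetine in WT, 306 over genotypes, and 10 and 3 for genotype under vehicle and lithium. With astrocyte and oligodendrocyte scores they were 156 for fluoxetine in WT, and 2 and 28 for genotype under vehicle and lithium. Without the 22 libraries they were 4, 0 and 9 for fluoxetine in HT, in WT and over genotypes, 355, 143 and 921 for lithium in HT (1560), in WT (1016) and over genotypes (2872), 353 for fluoxetine against lithium (1156), and 1 and 12 for genotype under fluoxetine and lithium.

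Leaving out each library gave 1 to 6 enzymes for fluoxetine in HT, 0 to 1 in WT, 2 to 6 for lithium in HT, 0 to 2 for lithium over genotypes and 0 to 1 for genotype under vehicle. Genes ran from 4 to 13 for fluoxetine in HT, 0 to 71 in WT and 58 to 335 over genotypes, 985 to 1815 for lithium in HT and 571 to 1226 in WT, 1 to 35, 1 to 2 and 2 to 10 for genotype under vehicle, fluoxetine and lithium, 0 to 1 for lithium by genotype and 0 to 2 for fluoxetine by sex.

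The labels do not say what a shared replicate number stands for, and libraries with the same number did not deviate together (median r of -0.03 to 0.08 over 5000 genes). With the replicate block all 24 enzyme calls were kept, and genes called were 49 for fluoxetine in WT, 254 over genotypes and 9 for fluoxetine by sex.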
